A study of Mus musculus with 16 samples.

Results

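A set of 469 sites in the mouse genome was occupied by Sox2 on day 1 of reprogramming in all 3 cocktails in which Sox2 was profiled on that day. The sites were defined by joining the Sox2 summits of the Oct4-SK, Oct6-SK and Oct4defSox2-SK cocktails whenever the next summit lay within 100 bp, and by keeping each joined site on chromosomes 1 to 19, X and Y that held a summit of every cocktail. They made up 469 of 21468 joined day 1 Sox2 sites, or 2.18%. The other 20999 sites had a summit in 2 cocktails (1834 sites) or in 1 (19165 sites).

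The cells were OG2-MEFs, embryonic fibroblasts of mice with an Oct4-GFP reporter, and all received Sox2 and Klf4 from pMX retroviruses together with 1 POU factor, in iCD1 medium. The POU factor was Oct4 (Oct4-SK), Oct6 (Oct6-SK), Oct4defSox2, an Oct4 mutant impaired in pairing with Sox2 (Oct4defSox2-SK), Oct4 S151M or Oct6 M151S, which exchange a residue between Oct4 and Oct6. Sox2 was profiled in the first 3 cocktails on days 1 and 5, Oct4 in Oct4-SK cells on days 1, 5 and 7, and Oct4defSox2 in its own cocktail on days 1 and 5. Oct4 S151M was profiled on day 1 with the Oct4 antibody, and Oct6 M151S with the Oct6 antibody, while binding of unaltered Oct6 was not analysed here. The title of the Oct6 M151S library gives day 1 and another of its labels gives day 2, and it was treated as day 1. Each of the 16 groups had 1 library, so the differences below compare libraries and not conditions. Intervals are 95% intervals that cover counting error among sites only, and the retroviral populations are mixtures of cells with different inserts.

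Sox2 is an HMG-box protein that bends DNA and recognises a short sequence resembling CATTGT, alone or beside a POU factor on a composite Sox-Oct element. Oct4 and Oct6 are POU proteins that bind the octamer and, as dimers, palindromic elements such as MORE. Sox2 is not a fibroblast gene, so on day 1 it acts in cells that began as fibroblasts. Regulators of fibroblast enhancers include AP-1, a dimer of Fos and Jun proteins, and RUNX factors. Binding of AP-1 and RUNX was not profiled here.

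The number of summits differed between the lists from which the sites were chosen: 15222 in Oct4-SK, 3242 in Oct6-SK and 5794 in Oct4defSox2-SK. The sites were therefore 3.08% of the Oct4-SK sites, 14.5% of the Oct6-SK sites and 8.10% of the Oct4defSox2-SK sites. In the other 10 libraries the number of summits ran from 1038 (Oct4defSox2, day 5) to 101170 (Oct4 S151M). The lowest score, the −log10 of the MACS2 p-value, was about 4 in 12 libraries and 2.301 in the Oct6 M151S library, where 56.7% of summits scored under 4. Read depth is not known here, and a site without a summit may be occupied below the calling threshold.

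Genomic sequence of 8 sites is shown first, since the sites differ in which binding sequences they hold and in how many libraries saw them. Each is the plus strand of mm10 over 201 bp around the middle of the joined summits, from the GRCm38.p6 RefSeq assembly, and is called by its nearest coding transcription start. Capitals mark matches, on either strand, to the Sox, Sox-Oct, MORE and AP-1 sequences described below.

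The sites at Sox21, Uvrag, Pkp4 and BC052040 held Sox-Oct matches with 1 or 2 mismatches, and the Pkp4 site also held AP-1 matches on both sides of that element.
Sox21, chr14:118230321-118230521: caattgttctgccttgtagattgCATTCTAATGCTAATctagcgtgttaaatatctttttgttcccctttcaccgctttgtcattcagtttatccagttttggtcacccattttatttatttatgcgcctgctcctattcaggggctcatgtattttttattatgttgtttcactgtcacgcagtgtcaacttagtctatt
Uvrag, chr7:99094015-99094215: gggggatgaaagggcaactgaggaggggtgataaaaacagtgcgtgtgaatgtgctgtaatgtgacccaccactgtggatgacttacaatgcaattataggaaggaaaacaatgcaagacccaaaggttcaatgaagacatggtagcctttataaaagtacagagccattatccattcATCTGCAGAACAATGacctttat
Pkp4, chr2:59248832-59249032: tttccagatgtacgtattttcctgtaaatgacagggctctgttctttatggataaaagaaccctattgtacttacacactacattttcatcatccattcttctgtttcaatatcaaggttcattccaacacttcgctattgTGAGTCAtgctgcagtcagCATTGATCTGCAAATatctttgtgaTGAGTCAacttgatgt
BC052040, chr2:115310219-115310419: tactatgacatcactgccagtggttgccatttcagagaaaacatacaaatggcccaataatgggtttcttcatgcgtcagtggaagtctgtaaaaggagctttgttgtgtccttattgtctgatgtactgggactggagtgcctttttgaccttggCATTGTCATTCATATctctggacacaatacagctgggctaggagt

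The sites at Fhit, Trpm3 and Bmp2k had a summit in 9 of the other 10 libraries, and the Dock9 site is 1 of 3 with a MORE match.
Fhit, chr14:10174935-10175135: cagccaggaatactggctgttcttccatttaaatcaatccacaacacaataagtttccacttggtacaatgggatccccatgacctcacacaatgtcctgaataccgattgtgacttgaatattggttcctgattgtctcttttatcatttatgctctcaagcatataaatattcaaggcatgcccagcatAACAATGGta
Trpm3, chr19:22704012-22704212: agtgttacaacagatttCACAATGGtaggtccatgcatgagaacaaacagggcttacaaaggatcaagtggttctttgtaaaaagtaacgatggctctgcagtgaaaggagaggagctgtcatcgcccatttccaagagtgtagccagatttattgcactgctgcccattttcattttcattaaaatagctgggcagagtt
Bmp2k, chr5:97016372-97016572: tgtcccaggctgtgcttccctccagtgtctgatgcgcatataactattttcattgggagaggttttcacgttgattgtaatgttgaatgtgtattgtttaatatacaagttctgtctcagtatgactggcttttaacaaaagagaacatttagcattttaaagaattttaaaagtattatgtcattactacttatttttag
Dock9, chr14:121614852-121615052: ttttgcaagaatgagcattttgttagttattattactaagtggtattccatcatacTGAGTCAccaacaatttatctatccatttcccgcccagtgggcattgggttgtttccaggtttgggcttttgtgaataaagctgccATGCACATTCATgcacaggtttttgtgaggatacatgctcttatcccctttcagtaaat

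The day 1 Sox2 scores chose the sites and are given as a description. Nearly every site (468 of 469) was joined from 3 summits, and the other held 4. The summits of a site spanned a median of 78 bp, from 6 to 189 bp. The score was lowest at 4.13, with a median of 17.0 and a highest value of 72.7, in Oct4-SK. It ran from 4.00 through a median of 9.09 to 71.5 in Oct6-SK, and from 4.06 through 13.04 to 87.0 in Oct4defSox2-SK. The members thus ranged widely in each list, and the highest score of the Oct4-SK list (77.8) lay at a site that was not common. Their median rank was the 92.2nd percentile of the Oct4-SK list, the 74.8th of the Oct6-SK list and the 80.2nd of the Oct4defSox2-SK list. Across the 469 sites, the scores of 2 cocktails were weakly related (Spearman's rho between 0.254 and 0.301), where the points share the mapping and base composition of the same windows.

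**Figure D1:**
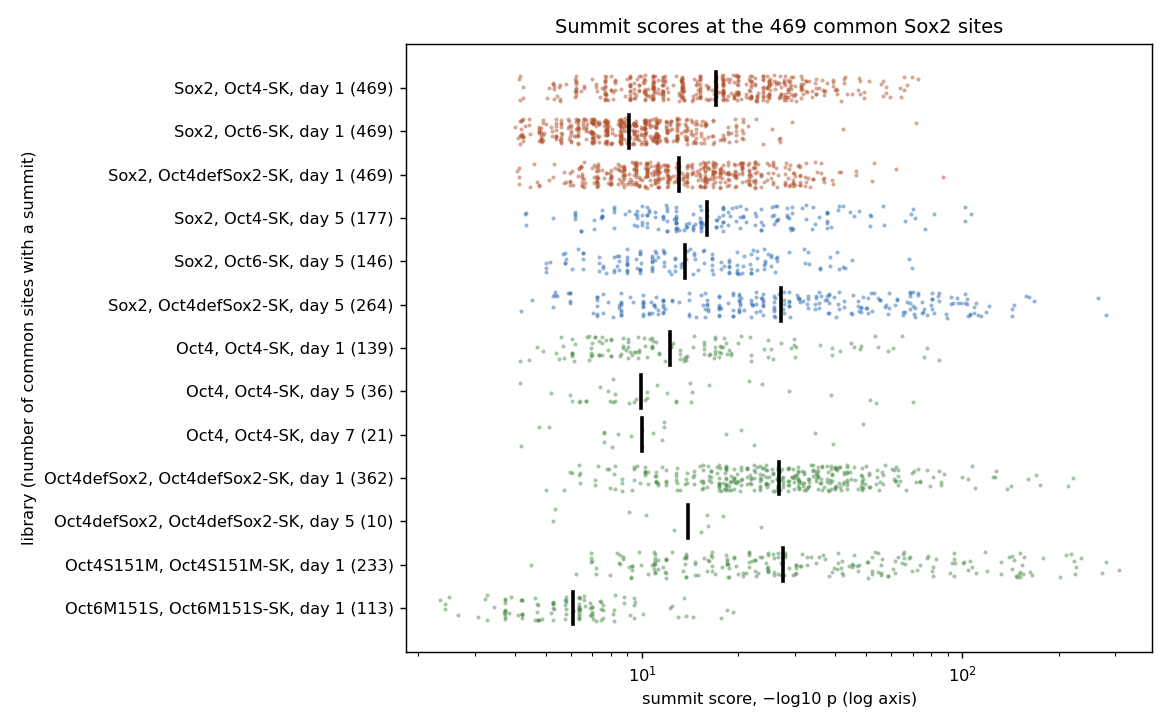
Summit score (−log10 p, log axis) of each common site in the 13 libraries, with 1 point per site that had a summit within 100 bp and a black bar at the median. In day 5 Sox2 the median was 27.2 in Oct4defSox2-SK, 15.98 in Oct4-SK and 13.6 in Oct6-SK. Scores are not scaled between libraries, so these medians describe each library and do not compare binding strength.

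At the edge of the rule, 40 sites were held together by a gap of 91 to 100 bp, and 30 more would have joined with gaps over 100 and up to 110 bp. Inside, the Spc24 site scored 34.8, 12.9 and 27.9 and the Cdh11 site 24.97, 11.1 and 36.9 in day 1 Sox2 of the Oct4, Oct6 and Oct4defSox2 cocktails. Outside, the Nsun3 site scored 39.4, 15.7 and 23.6 and the Trim52 site 16.8, 12.96 and 19.4 in the same order. The scores of these 4 sites overlapped across the limit.

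Of the 10 sites with the highest mean rank on day 1, the site 6609 bp from the start of Sox21, a Sox family repressor of neural cells, came first. It scored 72.7, 25.5 and 87.0 in day 1 Sox2 of the Oct4, Oct6 and Oct4defSox2 cocktails. On day 5 it scored 81.7 in Oct4-SK and 69.8 in Oct6-SK, with no summit in Oct4defSox2-SK. Oct4 was called there on days 1, 5 and 7, at 77.4, 53.9 and 48.9. Oct4defSox2 scored 222 on day 1, Oct4 S151M 150.5 and Oct6 M151S 6.34, and only the day 5 Oct4defSox2 library had no POU summit. This site thus had a summit of every antibody, and of Oct4 at every time.

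The other strong sites had fewer POU summits. The Nrep site, 27883 bp from its start, had Sox2 in all 3 cocktails on day 5, at 28.4 in Oct4-SK, 20.8 in Oct6-SK and 109 in Oct4defSox2-SK. Its POU summits were those of Oct4defSox2 on day 1 (26.5) and Oct4 S151M (11.01). The site nearest to Celf4 had Sox2 in all 3 cocktails on day 5 and Oct4 on days 1 and 5, and scored 219 for Oct4 S151M. The intronic site of Npas3, a neural transcription factor, scored 56.7, 15.7 and 52.8 in day 1 Sox2 of these cocktails, in the same order, and had no POU summit in any of the 7 POU libraries. Its Sox2 summit on day 5 was in Oct4defSox2-SK alone (27.8). The sites at Uvrag, which acts in autophagy, and Lxn each had 1 POU summit, that of Oct4defSox2 on day 1, at 30.7 and 42.5. The Stim2 site had Sox2 in all 3 cocktails on day 5 and summits of Oct4 S151M (23.1) and Oct6 M151S (3.85). The intronic site of Pkp4, a plakophilin of cell junctions, had Sox2 in all 3 cocktails on day 5 (15.2, 14.7 and 20.3) and summits of Oct4, Oct4defSox2, Oct4 S151M and Oct6 M151S on day 1.

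A pair of the 10 strongest sites lay in coding exons of delivered genes. The site in Pou5f1, which encodes Oct4, lay 282 bp from its start and scored 28.0 in Oct4-SK, 71.5 in Oct6-SK and 32.6 in Oct4defSox2-SK on day 1. On day 5 its Sox2 scores were 102, 33.0 and 281 in the same order. The site in Sox2 lay 368 bp from its start and scored 26.1, 18.0 and 36.2 on day 1, and on day 5 it had a summit within 100 bp in Oct4-SK alone (51.7). Elsewhere in the exon of Sox2, day 5 Sox2 was also called in Oct6-SK (32.6) and in Oct4defSox2-SK (up to 178). Viral cDNA and the endogenous gene cannot be told apart at these 2 sites. No common site lay in an exon of Klf4, though other libraries had summits in its exons. These were day 1 Oct4 (up to 33.7), day 1 Oct4defSox2 (up to 5.65), Oct6 M151S (13.3) and day 5 Sox2 of Oct4defSox2-SK (9.53). The Pou5f1 summit was the strongest of the whole day 1 list of Oct6-SK, a cocktail that by its label holds no Oct4. The source of that summit was not tested. Without the Pou5f1 and Sox2 sites 467 remained. None of the 10 occupancy differences between common and other sites then changed direction or came to include 0. The other comparisons were not repeated without these sites.

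**Figure D2:**
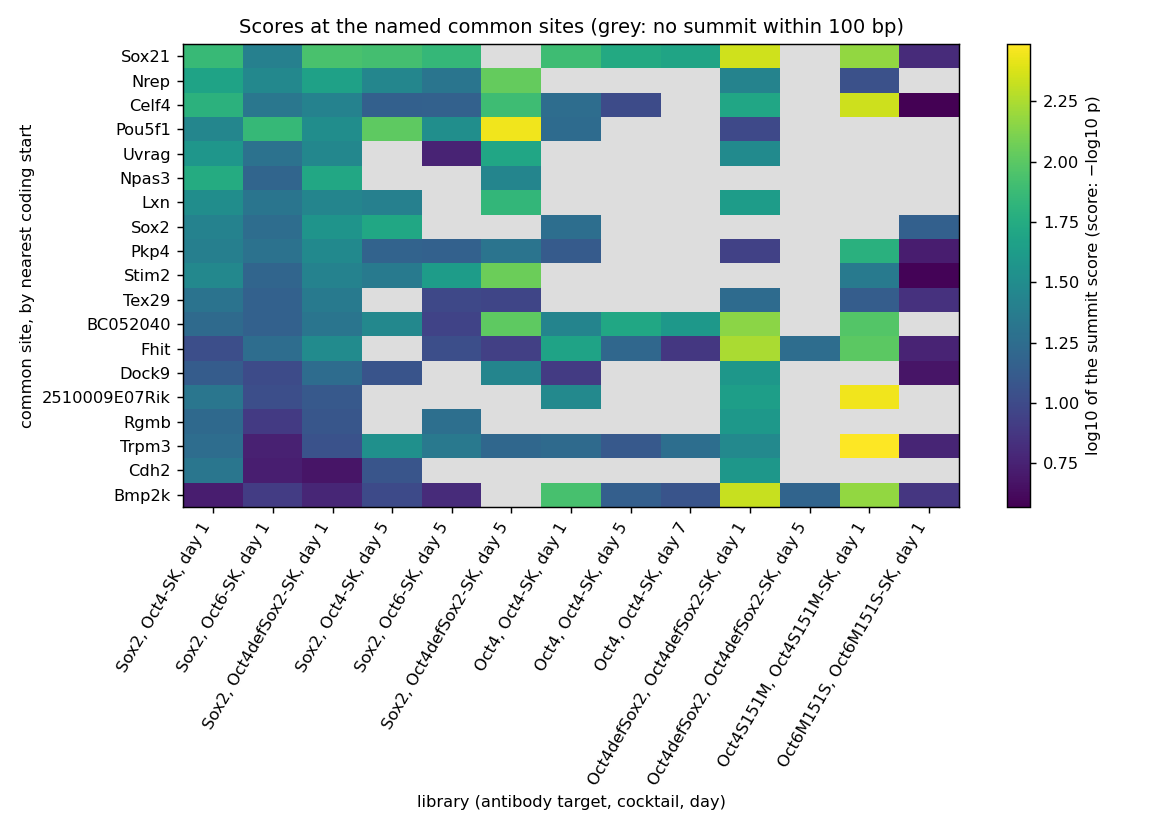
Scores of the 19 named common sites (rows, by nearest coding start) in the 13 libraries (columns), coloured by log10 of the summit score, with grey where no summit lay within 100 bp. Fhit, Trpm3 and Bmp2k were each called in 9 of the other 10 libraries, and Npas3 in 1. Scores are not scaled between libraries, so colours do not compare strength across columns.

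Sox2 was called again on day 5 at many of the common sites. At least 1 cocktail had a day 5 Sox2 summit within 100 bp of the middle of 308 sites (65.7%, 61.3 to 69.8), against 17.4% of the other day 1 sites and 18.4% of all joined sites. All 3 cocktails had one at 98 sites (20.9%), against 1.73% of the other sites and 2.15% of all. The remaining 161 sites (34.3%) had none. Without Oct4defSox2-SK, whose day 5 list was the longest, 210 sites (44.8%) had a day 5 summit in Oct4-SK or Oct6-SK, against 8.44% of the other sites and 9.24% of all. A further 98 sites had the summit in Oct4defSox2-SK alone (20.9%, against 8.91% of the other sites and 9.18% of all), 19 in Oct4-SK alone (4.05%, against 1.79% and 1.84%) and 10 in Oct6-SK alone (2.13%, against 1.02% and 1.04%). The order of these counts was the same in the other sites and followed the list lengths. Oct4-SK and Oct4defSox2-SK shared 45 sites (9.59%, against 2.21% and 2.38%), Oct6-SK and Oct4defSox2-SK 23 (4.90%, against 1.25% and 1.33%) and Oct4-SK and Oct6-SK 15 (3.20%, against 0.443% and 0.503%).

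**Figure D3:**
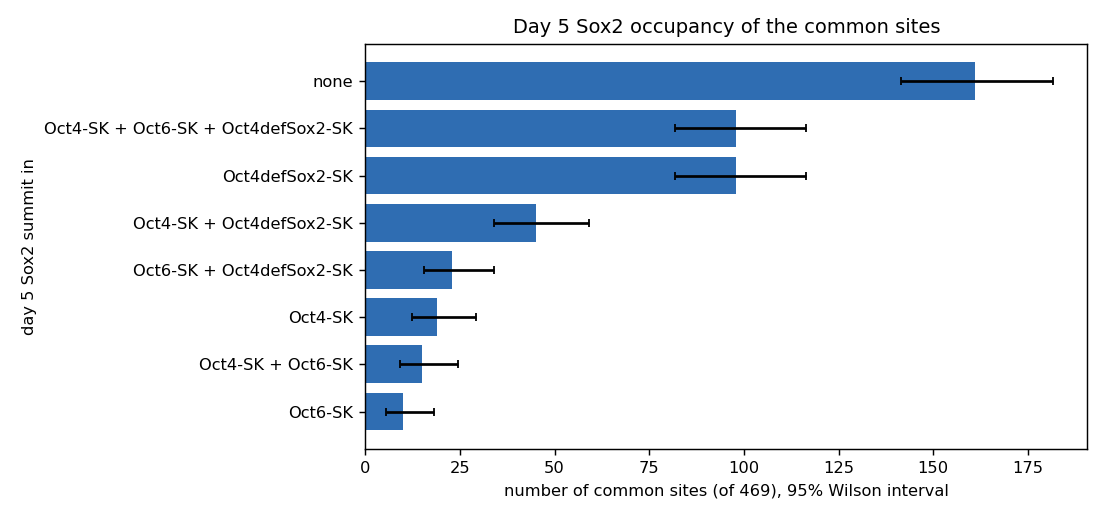
Number of the 469 common sites (horizontal axis) by the set of cocktails with a Sox2 summit on day 5 (vertical axis), with 95% Wilson intervals. No day 5 summit was the most frequent pattern, at 161 sites.

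By cocktail, day 5 Sox2 was found at 177 common sites in Oct4-SK (37.7%, 33.5 to 42.2), against 6.18% of the other sites, a difference of 31.6 points (27.3 to 36.0) with 6.87% of all sites called. In Oct6-SK it was found at 146 sites (31.1%, 27.1 to 35.5), against 4.44%, a difference of 26.7 points (22.7 to 31.0) with 5.02% of all called. In Oct4defSox2-SK it was found at 264 sites (56.3%, 51.8 to 60.7), against 14.1%, a difference of 42.2 points (37.6 to 46.6) with 15% of all called. Each interval excluded 0. Against the sites of exactly 2 cocktails the differences were 17.1, 13.8 and 14.6 points in the same order, and with the other sites weighted to the same day 1 score ranks they were 27.4, 23.7 and 35.7.

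Among the common sites, day 5 Sox2 was more frequent in Oct4defSox2-SK than in Oct4-SK by 18.6 points (13.5 to 23.4), and more frequent in Oct4-SK than in Oct6-SK by 6.61 points (2.51 to 10.7). With a binding distance of 50 bp the latter was 2.13 points and included 0 (−2.07 to 6.33). The order of the shares followed the order of the list lengths, which were 21563, 5832 and 2673 summits. With each list held to its 2673 strongest summits the shares were 34.5%, 32.4% and 31.1%, and neither difference excluded 0 (2.13 points, −2.02 to 6.27, and 1.28 points, −2.61 to 5.17).

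POU factors occupied most of the common sites. A summit of at least 1 of the 7 POU libraries lay at 417 sites (88.9%, 85.7 to 91.4), against 38.4% of the other sites and 39.5% of all. A POU summit was thus missing at 52 sites.

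On day 1, Oct4defSox2 was found at 362 sites (77.2%, 73.2 to 80.8), against 27.4% of the other sites and 28.5% of all. Oct4 was found at 139 sites (29.6%, 25.7 to 33.9), against 8.49% and 8.95%. Oct4 S151M was found at 233 sites (49.7%, 45.2 to 54.2), against 20.6% and 21.3%, and Oct6 M151S at 113 sites (24.1%, 20.4 to 28.2), against 5.23% and 5.65%. The differences from the other sites were 49.8, 21.1, 29.0 and 18.9 points in that order, and every interval excluded 0. Against 2-cocktail sites they were 12.3, 11.9, 10.6 and 9.81 points, whose intervals also excluded 0. Against the sites of Oct4-SK and Oct6-SK alone they were 14.8 (8.65 to 20.9), −7.99 (−14.3 to −1.65), −3.93 (−10.6 to 2.79) and 5.28 points (−0.28 to 10.7). There the intervals of Oct4 S151M and Oct6 M151S included 0. With scores of at least 10 the differences from the other sites were 30.6, 11.1, 19.9 and 2.90 points (0.79 to 7.55 for Oct6 M151S). Oct4 and Oct4defSox2 shared 127 common sites on day 1 (27.1%, against 6.00% of the other sites and 6.46% of all). Oct4defSox2 without Oct4 was found at 235 (50.1%, against 21.4% and 22%), and Oct4 without Oct4defSox2 at 12 (2.56%, against 2.49% and 2.49%), where the difference from the other sites included 0 (0.07 points, −1.04 to 1.94).

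Later POU libraries held few of the sites. Oct4 was found at 36 sites on day 5 (7.68%), against 3.14% of the other sites and 3.24% of all, and at 21 sites on day 7 (4.48%), against 1.64% and 1.7%. Oct4defSox2 was found at 10 sites on day 5 (2.13%), against 0.405% and 0.443%, in a list of 1038 summits. Compared with sites of 2 cocktails, the Oct4 differences were 0.81 points on day 5 (−1.62 to 3.77) and 1.21 points on day 7 (−0.58 to 3.59), so neither excluded 0. Of the 139 common sites with Oct4 on day 1, 31 (22.3%) had it on day 5, against 412 of 1783 other sites (23.1%), a difference of −0.80 points (−7.25 to 7.04) that included 0. Oct4 on days 1, 5 and 7 was found at 12 common sites (2.56%), against 0.705% of the other sites and 0.745% of all.

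**Figure D4:**
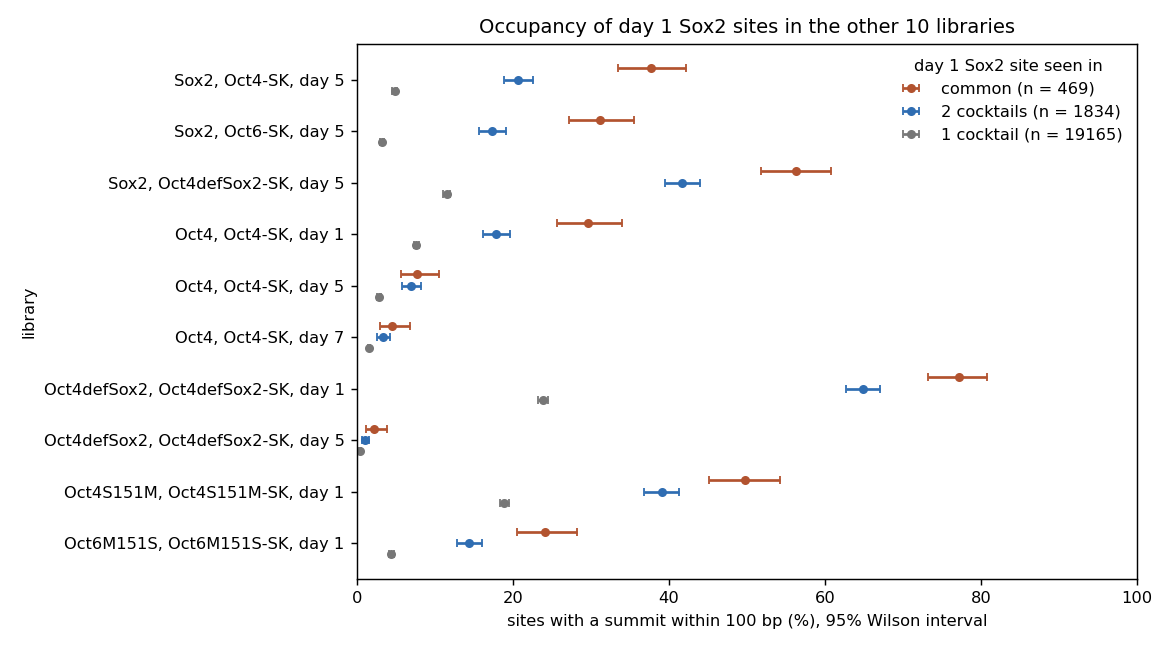
Share of day 1 Sox2 sites with a summit within 100 bp (horizontal axis, %) in each of the other 10 libraries (vertical axis), for sites of all 3 cocktails, of 2 and of 1, with 95% Wilson intervals. Of these 3 groups the common sites had the highest share in each library, from 2.13% (Oct4defSox2, day 5) to 77.2% (Oct4defSox2, day 1). Within the 2-cocktail group, the sites of Oct4-SK and Oct6-SK alone had higher shares than the common sites for some libraries. These were Oct4 on day 1 (37.6%), day 5 (14.2%) and day 7 (7.73%) and Oct4 S151M (53.6%).

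Within the common sites, Oct4defSox2 was more frequent than Oct4 on day 1 by 47.5 points (42.3 to 52.3). With both lists held to 8216 summits the shares were 58.0% and 29.6%, a difference of 28.4 points (23.2 to 33.3). Oct4 S151M was more frequent than Oct4 by 20.04 points (15.1 to 24.8) with full lists, but its 8216 strongest summits held 5.97% of the sites, and the difference turned to −23.7 points (−27.8 to −19.6). Oct4 exceeded Oct6 M151S by 5.54 points (0.19 to 10.9), and by 11.5 points (6.39 to 16.6) with equal lists. That difference included 0 with a binding distance of 50 bp (4.26 points, −0.36 to 8.88) or 250 bp (0.64 points, −5.13 to 6.41).

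The common sites differed from 2 classes of 2-cocktail sites in different ways. Against the 1182 sites of Oct4-SK and Oct4defSox2-SK, the common sites had more day 1 Oct4 (29.6% and 13.7%, a difference of 15.9 points, 11.5 to 20.6). Against the 388 sites of Oct4-SK and Oct6-SK they had less (37.6% there, a difference of −7.99 points, −14.3 to −1.65), and also less Oct4 on day 5 (14.2% there, −6.50 points, −10.9 to −2.33). The same 388 sites had day 5 Sox2 in Oct4defSox2-SK at 22.9%, lower than the common sites by 33.4 points (27.0 to 39.3). Day 1 Sox2 of Oct4defSox2-SK was part of the rule, and separates these classes by construction.

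Sox2 on day 5 was more frequent where the POU factor of the same cocktail had been called on day 1. In Oct4-SK, 79 of 139 common sites with Oct4 on day 1 had Sox2 on day 5 (56.8%), against 98 of 330 without it (29.7%), a difference of 27.1 points (17.4 to 36.4). In Oct4defSox2-SK, 214 of 362 sites with Oct4defSox2 on day 1 had it (59.1%), against 50 of 107 (46.7%), a difference of 12.4 points (1.67 to 22.8). The other day 1 sites also differed in this way, with 17.0% (304 of 1783) against 5.17% in Oct4-SK, a difference of 11.9 points (10.2 to 13.7), and 29.8% (1715 of 5755) against 8.18% in Oct4defSox2-SK, a difference of 21.6 points (20.4 to 22.9). With binding within 50 bp the differences were 15.5 points (4.70 to 27.0) in Oct4-SK and 9.40 points (0.51 to 18.1) in Oct4defSox2-SK, and within 250 bp they were 27.2 points (18.1 to 35.7) and 33.8 points (13.7 to 49.2). The order of the 2 cocktails thus turned with the distance, and whether their differences differ was not tested.

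The number of the other 10 libraries with a summit ranged from 0 at 23 sites to 9 at 3 sites, and 99 sites (21.1%) had summits of all 3 antibodies, against 3.70% of the other sites and 4.08% of all, a difference of 17.4 points (13.95 to 21.3) from the other sites. The site in an intron of Fhit scored 10.7, 18.0 and 31.0 in day 1 Sox2 of the Oct4, Oct6 and Oct4defSox2 cocktails, and 48.1, 16.2 and 7.62 for Oct4 on days 1, 5 and 7. Of the 10 libraries it was missing from day 5 Sox2 of Oct4-SK. The site in an intron of Trpm3, a cation channel gene, scored 18.0, 5.58 and 11.2 on day 1 and 34.0, 22.2 and 16.1 on day 5 in Sox2, 17.0, 12.8 and 18.3 in Oct4 and 307 in Oct4 S151M. The site in an intron of Bmp2k scored 5.27, 8.07 and 5.95 in day 1 Sox2, a mean percentile of 30.8 in those lists. It scored 84.5 in day 1 Oct4, 213 in Oct4defSox2 and 150.9 in Oct4 S151M. The intergenic site nearest to BC052040 had 8 of the 10, with Oct4 at 27.1, 51.3 and 39.3 on days 1, 5 and 7 and Oct4defSox2 at 142 on day 1. Strength in day 1 Sox2 and breadth across libraries thus did not go together at the Bmp2k site.

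The common sites lay mostly away from promoters. Of the 469, 230 were in introns (49.0%, against 48.7% of the other sites) and 221 were intergenic (47.1% in both), with differences of 0.31 points (−4.23 to 4.88) and 0.03 points (−4.50 to 4.602). The rest lay in UTRs (9 sites, 1.92% in both), noncoding exons (5, 1.07% against 1.25%) and coding exons (4, 0.85% against 1.00%). Within 1 kb of a transcription start lay 14 sites (2.99%, 1.79 to 4.95), against 5.63% of the other sites, a difference of −2.64 points (−3.88 to −0.66). Against 2-cocktail sites the difference was −0.12 points (−1.62 to 1.96), and with weighting by score rank −1.97 points (−3.23 to 0.04). The median distance to a coding start was 83465 bp, against 69723 bp. Fewer windows were mostly soft-masked repeat (2.35% and 10.3%, a difference of −7.95 points, −9.06 to −6.10).

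The 14 promoter sites are named by nearest coding start, and include sites at starts of noncoding transcripts. The site 150 bp from Mobp, a myelin protein gene, scored 34.7, 10.6 and 52.1 in day 1 Sox2 of the Oct4, Oct6 and Oct4defSox2 cocktails and 102, 68.4 and 265 on day 5. The site 647 bp from Ccl7, a chemokine gene, scored 14.4, 4.89 and 22.3 on day 1 and 26.6, 26.1 and 65.1 on day 5, with Oct4 at 6.81. Both were called in all 3 cocktails on both days. The site 0.15 kb from Cdh2, which encodes N-cadherin, scored 21.2, 5.37 and 4.75 on day 1, 11.9 on day 5 in Oct4-SK and 38.1 for Oct4defSox2 on day 1.

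Among 9 lists of genes, members with a common site within 50 kb of a coding start were few, and most lists hold few day 1 Sox2 sites of any kind, of which 2.18% were common overall. Of the naive pluripotency genes 3 of 22 had one (Pou5f1, Sox2 and Zfp42), the first and second of them the exon sites of delivered genes, while 10 had any joined site. A common site was also near 2 of 18 genes of the Sox family (Sox21 and Sox6), where 10 had any joined site, and near 2 of 23 annotated extracellular matrix genes (Col3a1 and Thbs2), where 17 had any. The same held for 1 of 29 actin and adhesion genes (Vcl), where 23 had any, and 1 of 20 neural progenitor genes (Cdh2), where 11 had any. The lists of AP-1 factors (12 genes), mesenchymal transcription factors (19), TGF-beta pathway genes (20) and epithelial genes (19) had none, from 4, 23, 22 and 13 joined sites in all. At 2.18% common, under 1 common site would be reached in each of these lists, so nothing is read from their counts of 0. The site 29.8 kb from Col3a1, a fibrillar collagen gene of fibroblasts, scored 9.80, 7.17 and 11.3 in day 1 Sox2 and 58.6 and 54.3 in day 1 Oct4 and Oct4defSox2. The Vcl site, in an intron of the vinculin gene, scored 56.7, 8.59 and 25.7 in day 1 Sox2.

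The sites were spread over many genes, which was not compared with the other sites. A coding start lay within 50 kb of 173 sites. The remaining 296 (63.1%, against 57.2% of the other sites) lay farther away, a difference of 5.96 points (1.46 to 10.3). The 264 genes within 50 kb had 1 common site each, so that none could be named for having most. Over any distance, 375 of 419 nearest coding starts were nearest to 1 common site. Tenm2 and Flrt2, which encode adhesion proteins of the nervous system, were each nearest to 4, chosen after their values were seen. The 4 Tenm2 sites lay from 915 to 1395 kb from its start.

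The sites were searched for 9 binding sequences on both strands of the 201 bp window. The Sox sequence was CCATTGT or CCTTTGT followed by any base but A, AP-1 was TGACTCA or TGAGTCA, RUNX was TGTGGTT, TEAD was ACATTCC, the octamer was ATGCAAAT, and KLF was GGGNGNGGC with C or T at the first N and G or T at the second. Sox-Oct (up to 2 mismatches), MORE (up to 1) and CTCF (up to 1) were searched by consensus, and Sox-Oct can overlap a Sox or an octamer match. A match is a description of letters and not of binding.

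The Sox sequence was in 175 common sites (37.3%, 33.1 to 41.8), against 16.9% of the other sites, 17.3% of all joined sites and 7.36% of windows 2 kb to either side. The difference from the other sites was 20.4 points (16.2 to 24.9), and 8.91 points (4.16 to 13.8) from 2-cocktail sites. From the 388 sites of Oct4-SK and Oct6-SK (32.5%) it was 4.84 points and included 0 (−1.59 to 11.2). The median match lay 33.5 bp from the middle of the site. A looser core of CATTGT or CTTTGT, chosen after seeing the data, was in 377 common sites (80.4%), against 53.2% of the other sites and 32.1% of the flanks.

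AP-1 matches were in 88 sites (18.8%, 15.5 to 22.5), against 10.2% of the other sites, 10.4% of all and 2.35% of flanks, a difference of 8.52 points (5.21 to 12.3) from the other sites. From 2-cocktail sites the difference was 2.41 points (−1.31 to 6.52). RUNX matches were in 52 sites (11.1%), against 5.84%, 5.96% and 4.37%, a difference of 5.24 points (2.69 to 8.42) that was 3.13 points (0.27 to 6.49) from 2-cocktail sites and included 0 from those of Oct4-SK and Oct4defSox2-SK (2.63 points, −0.44 to 6.11). Sox-Oct matches were in 29 sites (6.18%), against 3.63%, 3.69% and 1.71%, a difference of 2.55 points (0.69 to 5.12) that with score weighting was 1.30 (−0.60 to 3.89). From all 2-cocktail sites the Sox-Oct difference was 2.20 points (0.11 to 4.88). The sites of Oct4-SK and Oct6-SK had a Sox-Oct match at 8.51%, and the common sites differed from them by −2.32 points (−6.01 to 1.17). The difference was 2.88 points (0.70 to 5.59) from the sites of Oct4-SK and Oct4defSox2-SK, and 5.80 points (3.27 to 8.38) from those of Oct6-SK and Oct4defSox2-SK.

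The remaining sequences were rare. MORE was in 3 sites (0.64%, against 1.33% of the others, 1.31% of all and 0.75% of flanks), the octamer in 9 (1.92%, against 2.76%, 2.74% and 1.92%) and KLF in 7 (1.49%, against 1.23%, 1.24% and 0.75%). TEAD was in 21 (4.48%, against 3.89%, 3.90% and 2.88%) and CTCF in 2 (0.43%, against 1.01%, 1.00% and 1.28%). The intervals of these 5 differences from the other sites included 0. The octamer was less frequent in the common sites than in those of Oct4-SK and Oct6-SK (6.19%), by −4.27 points (−7.26 to −1.65). The MORE sites at Dock9, 2510009E07Rik and Rgmb each had Oct4defSox2 on day 1, at 38.8, 43.7 and 39.2. That library was called at 77.2% of the common sites, so nothing is read from these 3. The site in 2510009E07Rik scored 280.2 for Oct4 S151M. None of the 9 sequences was found in 176 common sites (37.5%, against 62.2% of the other sites and 61.6% of all). Both a Sox and an AP-1 match were in 28 (5.97%, against 2.10% and 2.18%).

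**Figure D5:**
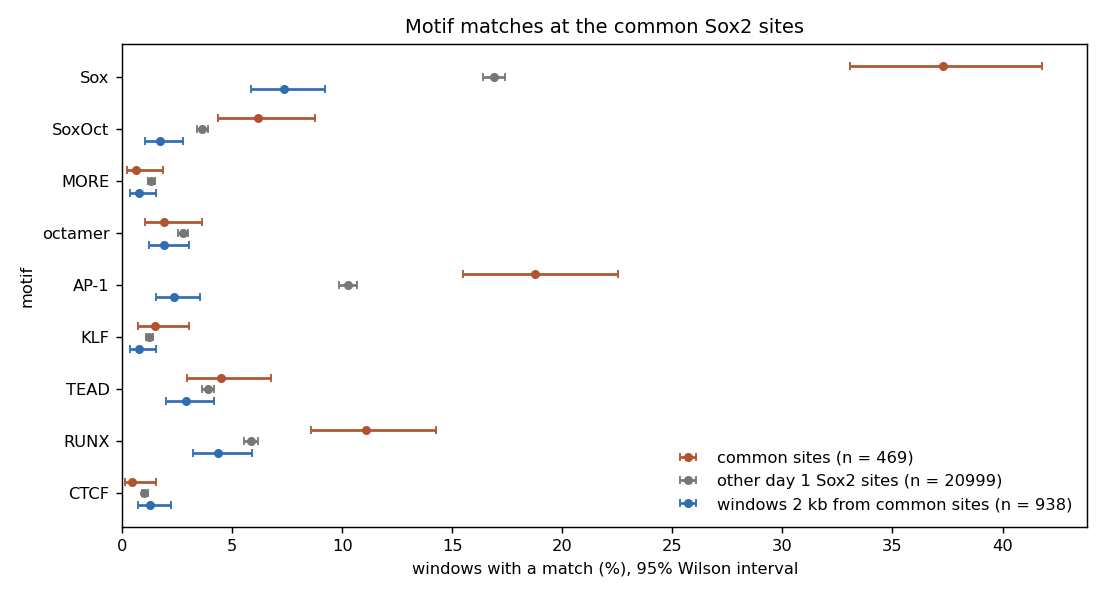
Share of 201 bp windows with a match (horizontal axis, %) to each of 9 binding sequences (vertical axis) in the common sites, the other day 1 Sox2 sites and windows 2 kb away, with 95% Wilson intervals. Sox matches were in 37.3% of the common sites and 7.36% of the flanks.

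Members with and without a given sequence were also compared in occupancy, in comparisons chosen after seeing the data. The 29 sites with a Sox-Oct match had Oct4 on day 1 at 58.6%, against 27.7% of the rest, a difference of 30.9 points (12.5 to 47.3), and Oct4 S151M at 79.3%, against 47.7%, a difference of 31.6 points (13.3 to 43.4). For Oct4defSox2 on day 1 the shares were 86.2% and 76.6% (9.62 points, −7.56 to 18.9), and for day 5 Sox2 of Oct4defSox2-SK 44.8% and 57.0% (−12.2 points, −29.2 to 6.01), so both included 0. Day 5 Sox2 also included 0 in Oct4-SK (7.55 points, −9.49 to 25.7) and Oct6-SK (7.25 points, −8.63 to 25.8). For Oct6 M151S the shares were 24.1% and 24.1%, with a difference of 0.05 points (−12.6 to 18.4). Sites with a Sox match had day 5 Sox2 more often in Oct4-SK (45.1% and 33.3%, 11.8 points, 2.71 to 20.8), in Oct6-SK (36.6% and 27.9%, 8.68 points, 0.02 to 17.5) and in Oct4defSox2-SK (65.1% and 51.0%, 14.1 points, 4.87 to 22.9). For the day 1 POU libraries the differences by a Sox match included 0. They were −6.26 points for Oct4, −2.80 for Oct4defSox2, 3.70 for Oct4 S151M and 5.32 for Oct6 M151S. By an AP-1 match the day 1 POU differences also included 0. Sites with an AP-1 match had day 5 Sox2 more often in Oct4defSox2-SK (69.3% and 53.3%, 16.04 points, 4.63 to 26.0). The differences included 0 in Oct4-SK (37.5% and 37.8%, −0.30 points, −10.9 to 11.2) and in Oct6-SK (29.5% and 31.5%, −1.95 points, −11.7 to 9.21). Whether the AP-1 difference differs between cocktails was not tested. The day 5 lists differed in length and were not held to equal numbers here, and the split was not made in the other sites.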

How the data were processed

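ChIP-seq reads were aligned by the authors to mm10 with Bowtie2 (2.2.5 in the submitters' processing notes), filtered with SAMtools for mapping quality and duplicates, and called per library with MACS2 by p-value, with a looser limit for Oct6 M151S as its lowest scores show. The score deposited by the authors for each summit is the −log10 of that p-value, not scaled between libraries. It was used to rank within a library and is printed as a description, so scores of different libraries do not compare binding strength. The alternative with scores of at least 10 put the same limit on lists whose scores differ in range. Peak tables deposited for some libraries and the 3 input libraries were not used here. Of 227116 summits, 154 off chromosomes 1 to 19, X and Y were left out. Summits within 100 bp were joined, and a library bound a site with a summit within 100 bp of its middle. Shares carry Wilson intervals, differences Newcombe intervals (paired where the same sites were compared) at 95%. The differences weighted by score instead join a Wilson limit for the common sites with a normal interval for the weighted other sites. No p-values were computed, since each group had 1 library. Genes come from GENCODE M21 basic. Scripts (Python 3.11.15, numpy 2.4.6, pandas 2.3.3, pysam 0.24.0) were tested on simulated data. Named sites are the 10 of highest mean rank, those in most other libraries, up to 4 with Sox-Oct or MORE, and those at the start of a listed gene. The members and gene lists were chosen with earlier results of these data known. The alternatives tried were other joining and binding distances, a score of at least 10, equal list lengths, 2-cocktail sites, weighting by score, and sets without promoters or exons of delivered genes.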

Additional observations from a re-analysis of the deposited data

How the results depend on the processing

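The number of common sites was 198 with joining within 50 bp, 136 with scores of at least 10 and 291 with equal numbers of the strongest day 1 summits. All 10 occupancy differences between common and other sites stayed above 0 under the alternatives listed here. Against the sites of Oct4-SK and Oct6-SK alone, 4 were below 0 (Oct4 on days 1, 5 and 7 and Oct4 S151M). The interval of Oct4 S151M included 0 there. For Oct6 M151S the difference was 2.90 points with scores of at least 10 and 2.19 without sites of all 3 antibodies, a set that leaves out most of its own sites. Their intervals came to include 0 for Oct4defSox2 on day 5 with scores of at least 10 (1.01 points), and against 2-cocktail sites for Oct4 on day 5 (0.81) and day 7 (1.21). With equal numbers of summits the day 5 Sox2 differences included 0: 2.13 points for Oct4defSox2-SK minus Oct4-SK, 1.28 for Oct4-SK minus Oct6-SK and 3.41 for Oct4defSox2-SK minus Oct6-SK. The Oct4-SK minus Oct6-SK difference was 2.13 with a binding distance of 50 bp, where the interval included 0 (−2.07 to 6.33). Oct4 S151M minus Oct4 turned to −23.7 with equal numbers, and Oct4 minus Oct6 M151S was 4.26 at 50 bp and 0.64 at 250 bp, where the interval included 0. The promoter difference included 0 against 2-cocktail sites (−0.12) and with score weighting (−1.97). Sox-Oct did so in windows of 50 bp to each side (0.73) and with score weighting (1.30), and AP-1 against 2-cocktail sites (2.41). KLF (−0.18) and TEAD (−0.45) turned direction in windows of 50 bp to each side, with intervals including 0 before and after. Of 199 alternative values, 179 kept their direction and their side of 0 or stayed within 1.5 times the count. The cause of these changes was not tested. No paired analysis was possible because each group had 1 library and the replicate number 1 only names it, so that pairing was by site and not by replicate. With 1 library per group, differences between cocktails, days and antibodies cannot be told apart from differences between libraries in depth and yield.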
